A study of Mus musculus with 6 samples.

Results

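Transcripts of immediate early genes were assayed in gastrocnemius and soleus, the calf muscles, of integrin alpha7 transgenic mice and of wild type mice. The members were 10 genes: the transcription factor genes Fos, Fosb, Jun, Junb, Egr1 and Atf3, the RNA decay gene Zfp36, the signalling inhibitor Socs3, and the response genes Ier2 and Btg2. All probe sets that the platform annotation gives exactly 1 of these symbols were taken, which came to 14 of the 45037 probe sets that were not controls, for 10 of 18193 named genes. The transgenic group was 3 arrays of integrin alpha7 transgenic muscle and the control group 3 arrays of wild type muscle. Both were from non-fasted female mice aged 5 weeks on the strain named as SJ6/C57BL6 background in the labels. Every array had received an RNA pool of 6 animals, or 18 animals of each genotype, and the spread between arrays is a spread between pools. The labels do not name the promoter of the transgene or the number of founder lines, and the wild type titles carry the word intronic without a definition.

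Immediate early genes are the genes that a cell transcribes first after a stimulus, without needing new protein synthesis. Kinase cascades act on transcription factors that already sit on their promoters, among them serum response factor with its ternary complex partners and CREB. The messages are short-lived, and their own products and RNA-binding proteins such as that of Zfp36 shut the response down again. In skeletal muscle, contraction, stretch and injury are known stimuli, and integrins feed into the same kinases through focal adhesion signalling.

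The run information of the transgenic arrays carries codes that contain the letters WT, so the genotype labels were checked against the overexpressed gene. The signal of Itga7 was 2498, 2144 and 2072 on the transgenic arrays, against 254, 308 and 313 on the wild type arrays, which is the order the labels give. Skeletal muscle markers were bright in every pool. The signals of 12 markers summed to 186545 to 196682 on the transgenic arrays and 202766 to 206749 on the wild type arrays. These sums did not overlap. The highest signal of an array was 21385.5 to 22468.8 in the transgenic and 23547.1 to 23952.5 in the wild type group. Several of these markers lay near that top, and its part in their differences was not tested. The sums of 12 macrophage markers were 6584 to 7307 on the transgenic and 6915 to 7339 on the wild type arrays, and those of 8 neutrophil markers 633 to 873 on the transgenic and 701 to 935 on the wild type arrays. Those of 10 endothelial markers were 2340 to 2704 on the transgenic and 2534 to 2908 on the wild type arrays, and those of 10 fibroblast markers 33429 to 37733 on the transgenic and 36807 to 39048 on the wild type arrays. No marker of these 5 lists passed the test described next. At an unadjusted p under 0.05 in that test, 5 of the 12 skeletal muscle markers were lower in transgenic muscle and 0 higher. The endothelial and the fibroblast markers each had 2 lower and 0 higher, the macrophage markers 2 lower and 1 higher, and the neutrophil markers 0. Of 12942 genes, 1055 differed at this level in either direction. The part of these cell types in the values below was not tested. In pooled tissue, a change in the share of a cell type cannot be told apart from a change in RNA per cell.

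No immediate early probe set passed an adjusted p of 0.05. Signals were compared as log2(signal + 16) with limma over the 27022 probe sets above the 40th percentile of mean level (about 21.7 in signal units), and p-values were adjusted over all of them by the Benjamini-Hochberg method. Of the 14 probe sets 13 were kept, for 9 genes, and 0 of these 13 passed, where 33 of all 27022 (0.122%) did. That background count of 33 became 19 when wild type replicate 1 was left out, and 18 when it was wild type replicate 2. At an unadjusted p under 0.05 there were 3 of the 13, for Btg2, Zfp36 and Socs3, all higher in transgenic muscle, where 3.51% of all kept probe sets were higher at this level and 7.85% differed in either direction.

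The differences of the kept probe sets shared a sign. The members were chosen with earlier results of these data known, so this is a description and not a test. All 13 were positive, that is, higher in transgenic muscle, where 47.4% of all kept probe sets were. Fosb, the member below the filter, was negative when fitted with no filter, at -0.43. Their median log2 difference was 0.26, with a range of 0.04 to 0.76, beside a median of -0.01 over all kept probe sets. On 4 of the 13, of the genes Btg2, Zfp36, Socs3 and Ier2, every transgenic array lay above every wild type array. Of all kept probe sets 5.85% were arranged so. The opposite order held on 0 of the 13, and on 2027 of all 27022 kept probe sets. The probe sets of 1 gene share their transcripts, and the genes are known to respond together, so the 13 are not independent observations of the genotype. With 1 probe set per gene, the brightest kept, the median was 0.31 over the 9 genes, against -0.00 over 12942 genes. Btg2 was then represented by 1448272_at, at 0.10, and not by 1416250_at, at 0.76. Left without transgenic replicate 1, 11 of the 13 were positive, and Fos and the brighter probe set of Jun were not.

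**Figure D1:**
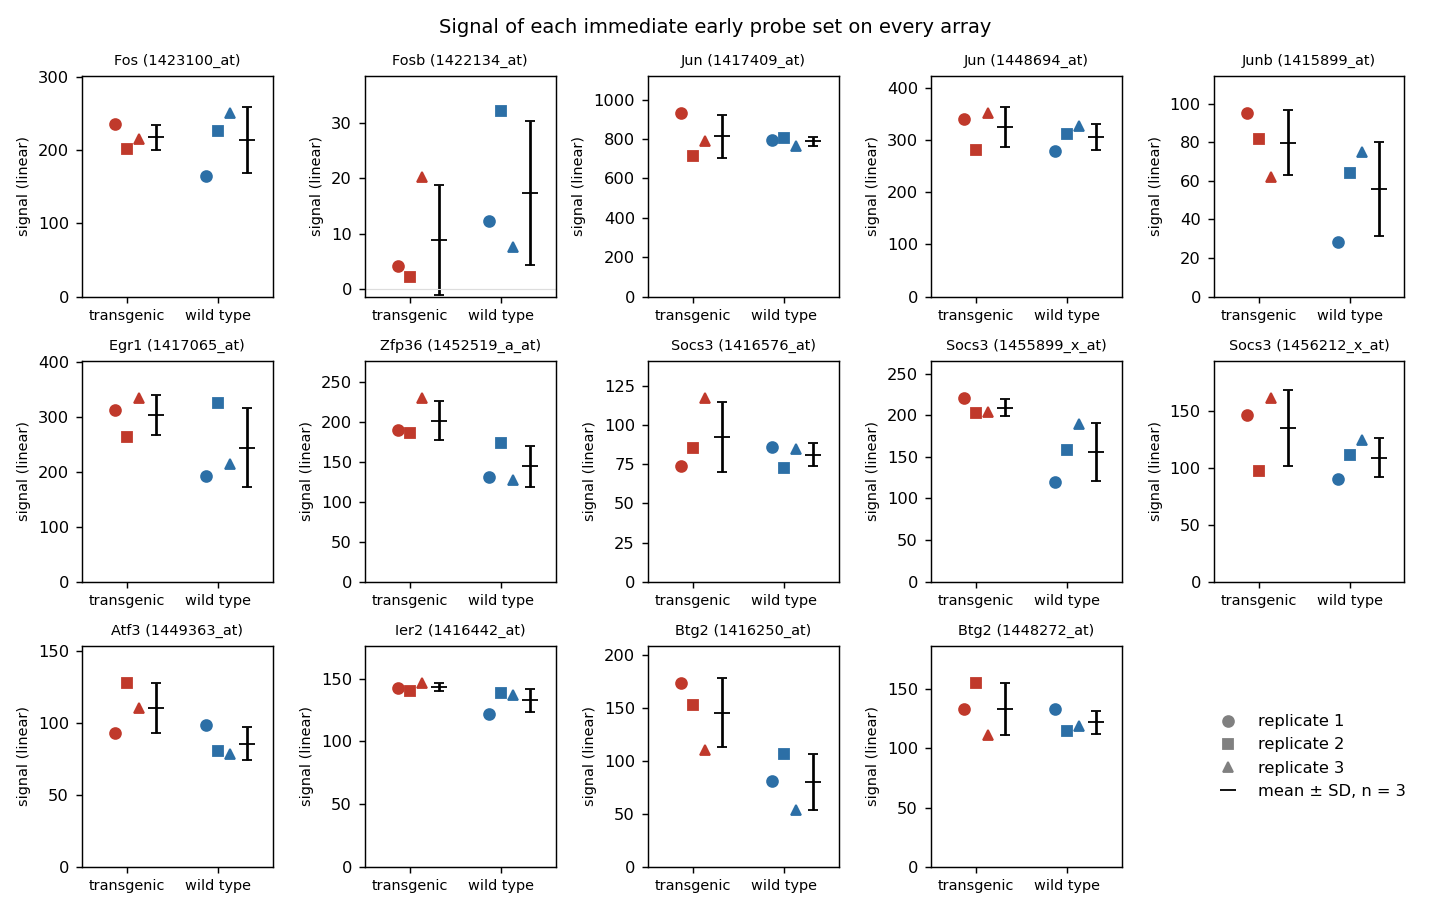
Linear signal of each of the 14 probe sets on every array, transgenic left and wild type right, with 1 marker shape per replicate number and the mean ± SD (n = 3) beside the points. Each panel has its own scale, and the panels of Zfp36, Ier2, one of Socs3 and one of Btg2 show no overlap between the genotypes.

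The promoters of the 3 genes with an unadjusted p under 0.05 on at least 1 probe set are shown with that of Fos. The signal of Fos was nearly equal in the genotypes, as was that of Jun. Btg2 and Socs3 reached that p on only 1 of their probe sets. The 4 promoters were picked by these values, so they are no contrast of changed and unchanged genes. Whether any motif bears on the signals was not tested. Of the 10 genes, 8 matched the RefSeq promoter table of build GRCm38.p6, the others being Egr1 and Ier2. The 250 bases before each start are given 5′ to 3′ in the direction of the gene. Zfp36 lies at chr7:28379229-28379478 on the minus strand, Btg2 at chr1:134079156-134079405 on the minus strand, Socs3 at chr11:117969367-117969616 on the minus strand and Fos at chr12:85473640-85473889 on the plus strand. Capitals mark motif matches on either strand.
Zfp36: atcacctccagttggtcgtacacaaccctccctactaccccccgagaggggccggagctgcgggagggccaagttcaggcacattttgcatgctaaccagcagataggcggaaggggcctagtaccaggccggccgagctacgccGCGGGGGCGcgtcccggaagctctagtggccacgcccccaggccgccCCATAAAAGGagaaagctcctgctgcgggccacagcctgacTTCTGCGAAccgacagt
Btg2: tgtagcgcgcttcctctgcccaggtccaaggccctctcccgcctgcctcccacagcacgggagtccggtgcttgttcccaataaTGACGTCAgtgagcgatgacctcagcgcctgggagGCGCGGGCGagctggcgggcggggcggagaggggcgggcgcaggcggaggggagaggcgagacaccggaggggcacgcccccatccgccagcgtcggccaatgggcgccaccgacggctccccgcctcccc
Socs3: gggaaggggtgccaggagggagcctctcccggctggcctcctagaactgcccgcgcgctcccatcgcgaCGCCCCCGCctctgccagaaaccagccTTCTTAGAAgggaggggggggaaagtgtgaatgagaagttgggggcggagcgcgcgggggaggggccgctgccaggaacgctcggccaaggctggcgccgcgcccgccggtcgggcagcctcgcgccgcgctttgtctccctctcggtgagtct
Fos: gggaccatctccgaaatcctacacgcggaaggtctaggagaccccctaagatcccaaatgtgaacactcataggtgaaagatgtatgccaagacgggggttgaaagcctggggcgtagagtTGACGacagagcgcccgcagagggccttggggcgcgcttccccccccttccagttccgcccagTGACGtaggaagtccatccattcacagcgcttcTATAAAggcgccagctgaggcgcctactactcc

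The motifs searched were the CArG box of serum response factor, the cyclic AMP response element TGACGTCA and its half-site TGACG, which overlap, the AP-1 site TGANTCA, the STAT site TTCNNNGAA, the EGR site GCGNGGGCG and the TATA box TATAAA. A CArG box stood in 1 of the 8 member promoters, that of Zfp36, from position -58 to -49 before the start, and in 1.47% of all 32851 promoters of the table. The full cyclic AMP response element stood in 1, that of Btg2, from -166 to -159, against 1.55% of all promoters. The half-site stood in 5 of the 8, against 17.8% of all, among them Fos from -129 to -125 and again from -66 to -62. The EGR site stood in 4, those of Fosb, Zfp36, Socs3 and Btg2, against 4.70% of all. The STAT site stood in 2, those of Zfp36 and Socs3, against 7.02% of all, the AP-1 site in 0, against 6.75%, and the TATA box in 1, that of Fos, against 12.4%. Such a match is a description of these letters, and the windows leave out elements farther away.

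The AP-1 genes come first among the members. Fos and Fosb encode the Fos partners, and Jun and Junb the Jun partners, of the dimeric transcription factor AP-1. Fos gave signals of 235, 202 and 215 on the transgenic arrays, against 164, 226 and 251 on the wild type arrays. The lowest and the highest of these 6 values were both wild type, and the genotypes overlapped throughout. The log2 difference was 0.04, with a standard error of 0.15 and a 95% interval of -0.28 to 0.36, and the adjusted p in limma was 0.972. In fold terms the interval ran from 0.821 to 1.29. The sign of this small difference turned without wild type replicate 1, where it was -0.13, and without transgenic replicate 1, where it was -0.02.

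Fosb was the 1 member below the filter. Its signals were 4.22, 2.11 and 20.3 on the transgenic arrays, against 12.4, 32.1 and 7.65 on the wild type arrays. These values are under the filter's signal on all arrays but wild type replicate 2, and they overlap between the genotypes. With no filter, a setting in which all probe sets were tested, its log2 difference was -0.43 with a standard error of 0.35 and an adjusted p in limma of 0.859. It was the single member probe set with a negative difference, at a level where no size can be read with confidence.

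Jun was measured by 2 probe sets. The brighter, 1417409_at, gave 934, 716 and 790 on the transgenic arrays, against 797, 803 and 763 on the wild type arrays. The transgenic arrays were both the highest and the lowest, so the genotypes differed in spread more than in level: the mean was 813 ± 111 (SD, n = 3) in transgenic and 788 ± 21.1 (SD, n = 3) in wild type muscle. Its log2 difference was 0.04, with a 95% interval of -0.17 to 0.25, and it was -0.065 without transgenic replicate 1. The dimmer, 1448694_at, gave 341, 281 and 352 on the transgenic arrays and 279, 311 and 327 on the wild type arrays, a log2 difference of 0.08 with an interval of -0.17 to 0.33, which leaving out 1 array moved between 0.018 and 0.18. Both probe sets thus gave small differences, with adjusted p in limma of 0.957 and 0.910. Of the kept members, the brighter Jun probe set had the narrowest interval.

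Junb gave the largest difference among the AP-1 genes and the widest interval of the 13 kept probe sets. Its signals were 95.4, 81.9 and 62.2 on the transgenic arrays, against 28.4, 64.1 and 75.2 on the wild type arrays. Wild type replicate 1 stood well below the other 5 arrays, which overlapped between the genotypes. The log2 difference was 0.46, with a standard error of 0.26 and a 95% interval of -0.11 to 1.04, and the adjusted p in limma was 0.715. Without wild type replicate 1 it was 0.15. The size of the Junb difference thus rested largely on that array.

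Egr1 and Atf3 encode 2 further inducible transcription factors, Egr1 with zinc fingers that bind GC-rich sites and Atf3 of the stress-responsive ATF/CREB family. Egr1 gave 313, 263 and 336 on the transgenic arrays, against 194, 327 and 214 on the wild type arrays. Wild type replicate 2 lay among the transgenic values, and the other wild type arrays lay below all of them. The log2 difference of Egr1 was 0.32, its 95% interval -0.05 to 0.70 and its adjusted p in limma 0.696. It was 0.54 without wild type replicate 2, and 0.18 with wild type replicate 1 left out instead. Atf3 gave 92.6, 128 and 110 on the transgenic arrays, against 98.5, 80.1 and 78.1 on the wild type arrays, where transgenic replicate 1 lay below wild type replicate 1. Its log2 difference was 0.31 (95% interval -0.04 to 0.66), and the adjusted p in limma was 0.688.

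Zfp36 encodes tristetraprolin, which binds AU-rich elements of short-lived messages and brings about their decay. Its signals were 190, 186 and 231 on the transgenic arrays, against 131, 175 and 128 on the wild type arrays. All transgenic arrays lay above all wild type arrays, with transgenic replicate 2 close to wild type replicate 2. The means were 202 ± 24.9 (SD, n = 3) in transgenic and 145 ± 26.1 (SD, n = 3) in wild type muscle. The log2 difference was 0.45, or 1.36-fold, with a standard error of 0.14 and a 95% interval of 0.13 to 0.77. Its unadjusted p in limma was 0.00973 and its adjusted p 0.439, rank 599 of the 27022 probe sets, so it did not pass over all genes. Whether the CArG box printed above bears on this signal was not tested.

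Socs3 encodes an inhibitor of cytokine signalling that is itself induced through STAT3. It was measured by 3 probe sets, of which those with names ending in x_at hold probes that may match other sequences too. The brightest, 1455899_x_at, gave 221, 202 and 204 on the transgenic arrays, against 120, 158 and 190 on the wild type arrays. The genotypes did not overlap, and the wild type arrays spread over a far wider range, with an SD of 34.9 beside 10.3 in transgenic muscle. Its log2 difference was 0.41, or 1.33-fold, with a 95% interval of 0.08 to 0.74, an unadjusted p in limma of 0.0191 and an adjusted p of 0.532. Without wild type replicate 1 it was 0.25, with an unadjusted p in limma of 0.0898.

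The other probe sets of Socs3 gave smaller differences. On 1456212_x_at the signals were 147, 97.9 and 162 on the transgenic arrays, against 90.8, 112 and 125 on the wild type arrays, which overlap through transgenic replicate 2. The log2 difference there was 0.26, with a 95% interval of -0.14 to 0.66. Leaving out transgenic replicate 2 gave 0.45 there, transgenic replicate 3 gave 0.13, and wild type replicate 1 gave 0.15. On 1416576_at they were 74.1, 85.7 and 118 on the transgenic arrays, against 86.1, 72.5 and 85.0 on the wild type arrays. There only transgenic replicate 3 stood apart, and without it the log2 difference of 0.14 became -0.020. The 3 estimates lay within 0.27 of each other on the log2 scale, less than the width of any 1 of their intervals.

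Ier2 encodes a small nuclear protein induced by growth factors. Its signals were 143, 140 and 147 on the transgenic arrays, against 122, 139 and 137 on the wild type arrays. The genotypes did not overlap, although transgenic replicate 2 and wild type replicate 2 were nearly equal. The log2 difference was 0.10 (95% interval -0.17 to 0.37), with 0.887 as the adjusted p in limma, so a separation of arrays went with a difference that was small beside its own error. It was 0.047 without wild type replicate 1.

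Btg2 encodes an antiproliferative protein that is induced by growth factors and by p53 and takes part in mRNA deadenylation. Its 2 probe sets did not give the same picture. On 1416250_at the signals were 174, 153 and 110 on the transgenic arrays, against 81.2, 106 and 53.6 on the wild type arrays. The genotypes did not overlap, and the gap between transgenic replicate 3 and wild type replicate 2 was narrow. The means were 146 ± 32.4 (SD, n = 3) in transgenic and 80.4 ± 26.4 (SD, n = 3) in wild type muscle. The log2 difference of 0.76, or 1.70-fold, was the largest of the members, with a standard error of 0.22 and a 95% interval of 0.29 to 1.24. Its unadjusted p in limma was 0.00454, the smallest of the members at rank 342 of 27022, and its adjusted p was 0.359. When the fluidics module entered as a random block the adjusted p in limma was 0.0487, but no module held both genotypes.

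The second probe set of Btg2, 1448272_at, gave 134, 155 and 111 on the transgenic arrays, against 133, 115 and 119 on the wild type arrays. Here the genotypes overlapped, and transgenic replicate 3 was the lowest of the 6 arrays. The log2 difference was 0.10 (95% interval -0.21 to 0.42), and limma's adjusted p was 0.905. It was 0.00022 without transgenic replicate 2, and 0.22 with transgenic replicate 3 left out instead. The estimates of the 2 probe sets were 0.66 apart on the log2 scale, the widest gap between probe sets of 1 member. Which transcripts or sequence differences each probe set reads was not analysed here.

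**Figure D2:**
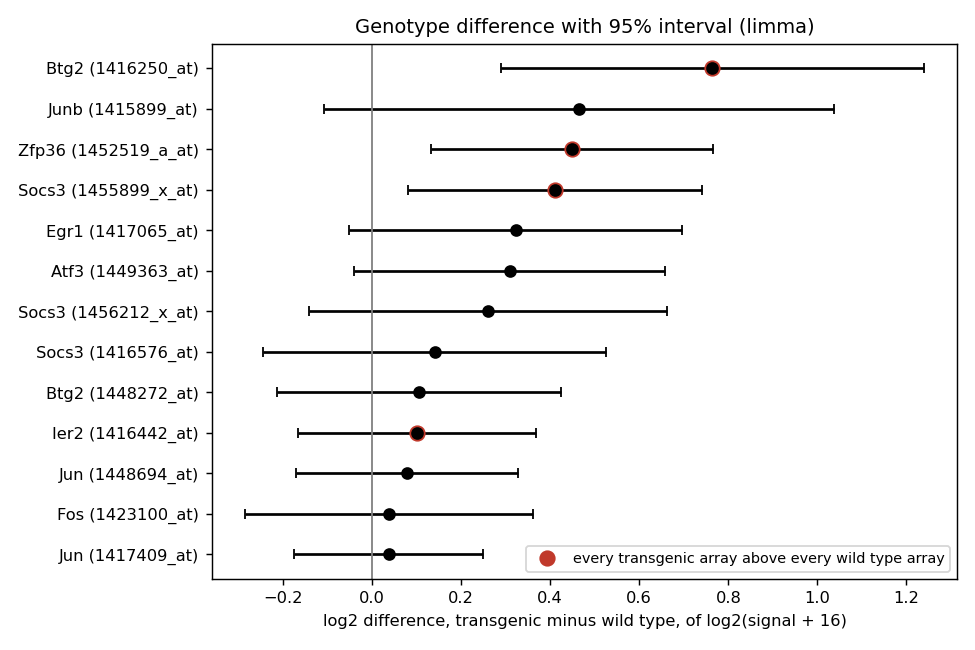
Log2 difference, transgenic minus wild type, of the 13 kept probe sets with its 95% interval from limma (horizontal bars). All 13 estimates lie right of 0 and 3 intervals leave 0 out, those of Btg2 (1416250_at), Zfp36 and Socs3 (1455899_x_at), and a red rim marks the 4 probe sets whose arrays do not overlap.

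The arrays did not contribute evenly. Set against the mean of all 6 arrays, the median deviation of the 13 kept probe sets was 0.15 for transgenic replicate 1, 0.02 for transgenic replicate 2 and 0.16 for transgenic replicate 3. It was -0.33 for wild type replicate 1, -0.01 for wild type replicate 2 and -0.01 for wild type replicate 3. Wild type replicate 1 was thus the array furthest from the others in these genes. It was the lowest of all 6 arrays on 7 of the 13 probe sets, among them Fos, Junb and Egr1, and the highest on 0. The highest array was transgenic on 12 of the 13 probe sets, and for Fos it was wild type replicate 3. Without wild type replicate 1 the difference was positive on 12 of the 13 probe sets.

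**Figure D3:**
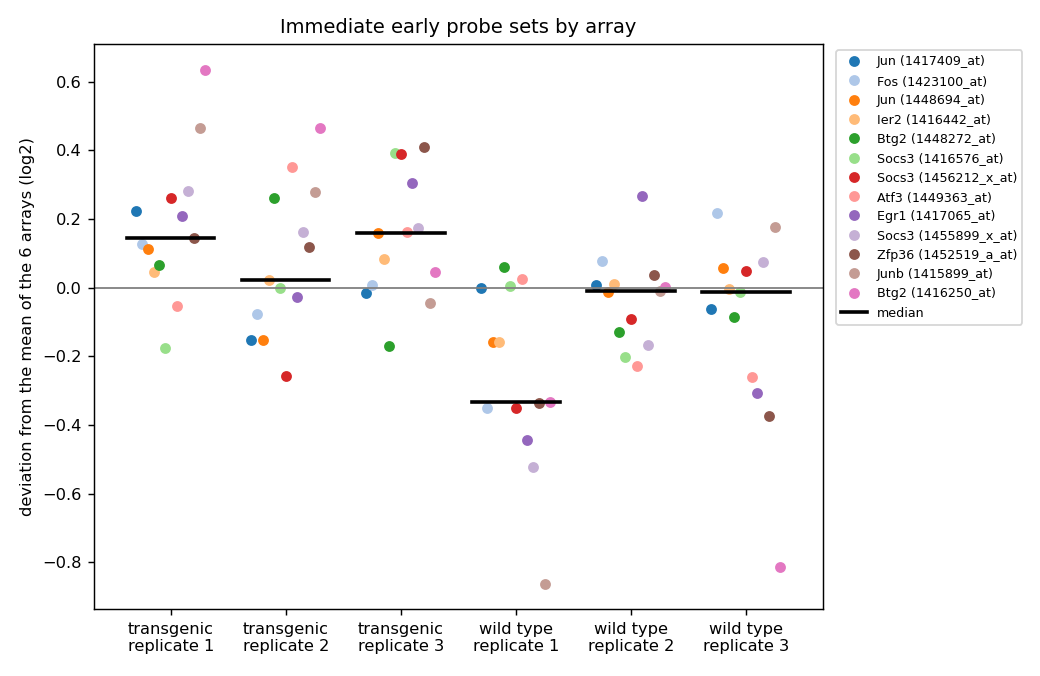
Deviation of each kept probe set from its own mean over the 6 arrays, on the log2(signal + 16) scale, by array, with the median of the 13 as a black line. The median of wild type replicate 1 lies at -0.33, and those of the other 5 arrays between -0.01 and 0.16.

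By the run information the arrays fell into 2 hybridisation rounds and were scanned on 1 day. The rounds were inferred, by splitting the recorded hybridisation times where more than an hour lay between starts. Replicates 1 and 2 of both genotypes fell in the first and replicate 3 of both in the second. In round 1, with 2 arrays of each genotype, all 13 differences were positive. In round 2, with 1 array of each genotype and hence no test, 10 of the 13 were. Btg2 on 1416250_at gave 0.72 in round 1 and 0.86 in round 2 on the log2 scale, and Zfp36 gave 0.28 and 0.78. Socs3 on 1455899_x_at gave 0.57 in round 1 and 0.10 in round 2. The members of negative difference in round 2 were Junb, at -0.22 against 0.81 in round 1, Fos, at -0.21 against 0.16, and Btg2 on 1448272_at, at -0.08 against 0.20. With the round as a block, 0 of the 13 passed, and the smallest adjusted p in limma was 0.110, for Btg2 on 1416250_at.

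**Figure D4:**
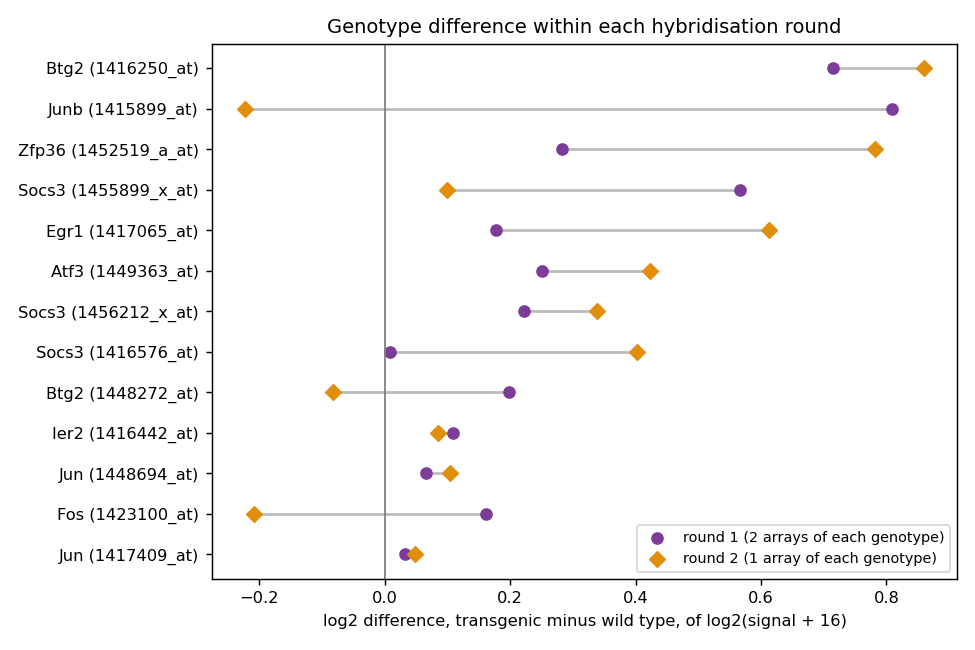
Log2 difference, transgenic minus wild type, of each kept probe set in hybridisation round 1 (circles, 2 arrays of each genotype) and round 2 (diamonds, 1 array of each genotype). Grey lines join the rounds, and Junb, Fos and Btg2 (1448272_at) are the 3 probe sets whose lines cross 0.

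A wider list of 38 other immediate early genes was less one-sided. Of these, 33 had a kept probe set, and on the brightest of each gene 21 differences were positive and 12 negative, with a median log2 difference of 0.06 and a range of -0.43 to 0.72. None passed over all genes, where 0.122% of all kept probe sets did, and the smallest adjusted p in limma was 0.521. At an unadjusted p under 0.05 there were 5 higher and 1 lower of the 33, where 1055 of the 12942 genes differed at this level in either direction. The one lower was Nr4a3, an orphan nuclear receptor gene induced by exercise, with 89.9, 94.4 and 88.6 on the transgenic arrays, against 124, 127 and 116 on the wild type arrays. Its arrays did not overlap, and its log2 difference was -0.37 with a 95% interval of -0.66 to -0.08. Gadd45g, a stress-inducible growth arrest gene, gave a log2 difference of 0.42, with means of 748 ± 167 (SD, n = 3) in transgenic and 553 ± 94.8 (SD, n = 3) in wild type muscle. Without transgenic replicate 2 it was 0.24, with an unadjusted p in limma of 0.0855. Dusp1, a phosphatase that switches off MAP kinases, gave 0.19, with means of 1822 ± 125 (SD, n = 3) in transgenic and 1600 ± 97.9 (SD, n = 3) in wild type muscle.

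Relatives of these genes, chosen after their values were seen, had differences of both signs. Nr4a2 gave a log2 difference of -0.43 with arrays that did not overlap, while Nr4a1 gave 0.14. Egr2, a relative of Egr1, gave 0.45 and its arrays did not overlap, with a mean of 50.5 in transgenic and 32.9 in wild type muscle. Egr3 gave 0.21, and Egr4 gave 0.72, the highest value of the list, both with overlapping arrays. Egr4 had signals of 34.1, 41.5 and 25.9 on the transgenic arrays, against 37.1, 6.0 and 7.12 on the wild type arrays. The wild type values of 6.0 and 7.12 lay under the filter's signal, so the size of the Egr4 difference cannot be read with confidence. None of these 5 passed over all genes. The Egr relatives shared a positive sign, that of Egr4 with the limit just given, and the Nr4a genes did not share one.

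Transcripts of the kinases and factors upstream showed no shared direction, and the activity of their products was not measured. Of 26 genes fixed as kinases, small GTPases, serum response factor with its partners, and CREB relatives, 18 had a kept probe set with a single symbol and the other 8 were not analysed here. Positive differences were given by 10 and negative ones by 8, with a median log2 difference of 0.04 and none past the test. The smallest p belonged to Rps6ka3, the kinase RSK2, at -0.20, Map2k2, the MAP kinase kinase MEK2, at 0.26 (0.16 without transgenic replicate 3), and Creb1, a factor that binds cyclic AMP response elements, at -0.21. Serum response factor itself, Srf, chosen after its value was seen for its place on these promoters, gave 0.09.

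Transcripts of the pathway that induces Socs3 were of mixed sign too, and the activity of the pathway was not measured. Of 17 genes of the IL-6 family and STAT3 pathway 15 were kept, and the ligand genes Il6 and Lif were below the filter. Of those kept, 8 had positive and 7 negative differences, at a median of 0.01 on the log2 scale, and none passed. The kinase gene Pim1, a STAT target, gave -0.28, the Janus kinase Tyk2 gave 0.25, and Socs1, a relative of Socs3, gave -0.54. Socs1 had signals of 19.8, 16.1 and 22.3 on the transgenic arrays, against 55.9, 23.8 and 31.6 on the wild type arrays. The transgenic arrays of Socs1 were thus all below the wild type ones, the reverse of the brightest probe set of Socs3, at a signal close to the filter. Without wild type replicate 1 its log2 difference was -0.30.

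**Figure D5:**
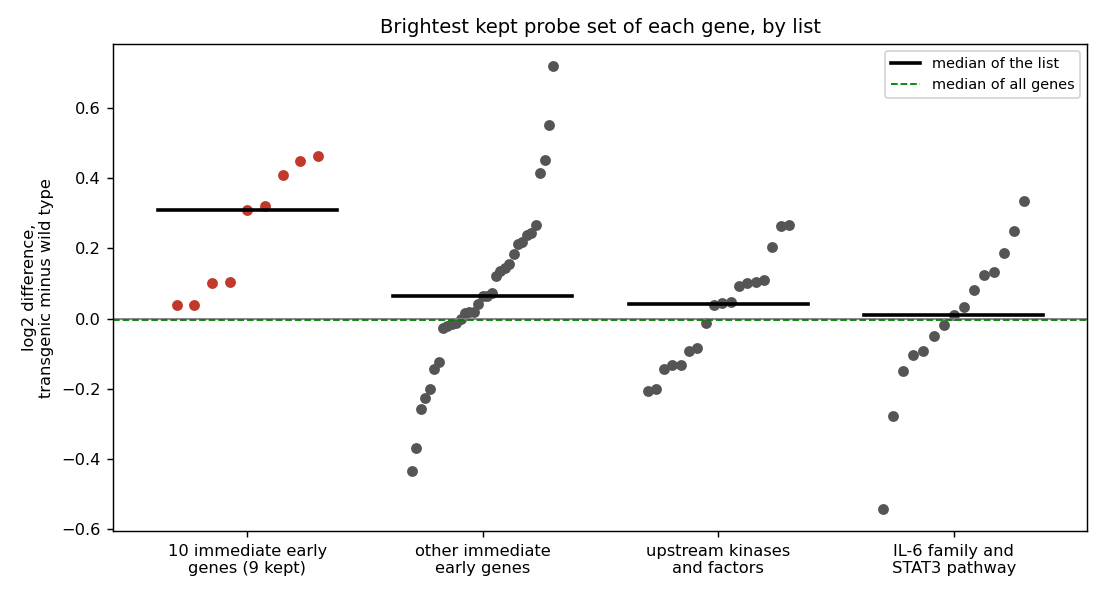
Log2 difference, transgenic minus wild type, of the brightest kept probe set of each gene in 4 lists, with the list's median as a black line and the median of all genes dashed. The 9 kept members lie between 0.04 and 0.46 with a median of 0.31, and Btg2 is shown by 1448272_at, at 0.10, not 1416250_at, at 0.76. The other lists lie on both sides of 0, with medians of 0.06, 0.04 and 0.01.

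The genes whose profile over the arrays was most like the members were also sought. The profile was the mean over the 9 kept members, taking the brightest probe set of each, centred within each genotype, so the genotype difference did not enter. It stood at 0.04, -0.02 and -0.02 on the log2 scale on the transgenic arrays, against -0.16, 0.11 and 0.05 on the wild type arrays, again with wild type replicate 1 lowest. Of 12933 other genes, Supv3l1, Fam43a, Asnsd1, Wdr45b and Zfp955a had the smallest root mean square difference from it, between 0.0120 and 0.0199 on the log2 scale over 6 arrays, where the median gene had 0.159. Of the members themselves, Ier2 was closest to the mean profile, at 0.0425, and Junb furthest, at 0.277. That mean contains each member, so these distances cannot be set against those of the other genes. With so many genes and only 6 arrays, near matches to any shallow profile are to be found.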

How the data were processed

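Muscle RNA pools were read on 6 Affymetrix Mouse430_2 arrays, 1 for each pool. Per the submitters' processing notes GCOS 1.1.1 was used, with an algorithm not given in the sources used here. Each probe set has 1 linear intensity in the table the authors deposited. The deposited intensity had a mean of 150.0 on every array after trimming 2% at each end, which hides any change common to most transcripts. Array medians were 34.0 to 37.3 in the transgenic and 36.2 to 38.4 in the wild type group. No detection calls were used. Files of run information served for hybridisation round and fluidics module only.

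Of 45101 rows, 64 controls were left out. Intensities were analysed as log2(signal + 16), which understates changes of dim transcripts, without further normalization. The fit was limma 3.58.1 in R 4.3.3, with intensity-trended moderated variances, no covariates and two-sided tests. A check on simulated data required recovery only of changes larger than any member difference here. It therefore does not speak to differences of the members' size. Fold changes come from differences of log2(signal + 16). Platform symbols were updated by gene identifier to RefSeq names of GRCm38.p6. For lists, the brightest kept probe set stood for a gene.

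The members, lists and tests were chosen with earlier results of these data known, so no adjustment over the members alone and no test of the list is given. Named were all member probe sets, Itga7, the 3 smallest p of each further list, and the 5 genes of most similar profile. Relatives (Nr4a1, Nr4a2, Egr2, Egr3, Egr4) and Srf were added after their values were seen. As alternatives, the offset, normalization, filter, variance model and blocks were varied, round 1 was fitted alone and each array was left out in turn. The number of arrays limits the precision.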

Additional observations from a re-analysis of the deposited data

How the results depend on the processing

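Over 18 alternatives the count of kept member probe sets past the adjusted threshold was 0, except when the fluidics module was a random block. Then 1 passed, Btg2 on 1416250_at, but no module held both genotypes, and the estimated correlation of arrays in a module was -0.44. The count over all genes was 33, and was 50 with equal array medians, 17 with no filter, 1 with no intensity trend, 297 with the module as a random block, and 18 to 39 leaving out each array. Member probe sets with a positive difference were 13 of 13, also with quantile normalization, 13 of 14 with no filter, and 11 to 13 leaving out each array. Equal array medians raised every difference by the same amount, so the 13 of 13 found there was fixed in advance. Leaving out 1 array moved the log2 difference of Fos between -0.13 and 0.16, and of Jun on 1417409_at between -0.065 and 0.12. That of Socs3 on 1416576_at moved between -0.020 and 0.26. These were the kept members whose sign turned in any of the 18. The filter settings, the fit with no intensity trend, and the replicate and round blocks left each log2 difference unchanged. Those settings could therefore turn no sign. Btg2 on 1416250_at stayed between 0.54 and 0.95, with an adjusted p of 0.0487 to 0.623 in limma, and Zfp36 between 0.28 and 0.58, with 0.0661 to 0.728. Round 2 alone gave no count, since it held 1 array of each genotype. With the replicate number as a replicate block, 36 probe sets passed over all genes and 0 of the members. Same-numbered arrays correlated at only 0.00295 to 0.0601 in their deviations from the group means. For these small correlations the number was not taken as pairing the pools, although 4 of 6 arrays correlated best with their own number. Each of the 9 named genes of the further lists kept its sign and stayed uncalled in all alternatives that tested it. The settings that leave each difference unchanged could turn no sign there either. The cause of each change was not tested.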
